A study of Mus musculus with 23 samples.

Results

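The MYC, MAX and MXD network was followed here through 10 genes, Myc, Mycn, Mycl, Max, Mlx, Mxd1, Mxd3, Mxd4, Mxi1 and Mnt, which were chosen by name and found on the arrays through the RefSeq accessions of their probes. All 10 had a probe among the 18217 genes with a named probe, and all 10 were among the 13765 genes tested. The members had 15 probes in all. RNA came from 22 mouse samples on 23 one-colour Agilent arrays. The mice were C57BL/6 x 129 and all of them, controls included, lacked Cd3e, a gene needed to make T cells. The groups were 9 B cell lymphoma lines (labelled ATMKO.CD3eKO, sex not given), 6 tumour-free ATMKO.CD3eKO spleens (all female) and 7 ATMWT.CD3eKO spleens (4 male, 3 female). The lines had been established from spleens with tumours and were grown in suspension, so they hold cultured tumour cells while each spleen holds all cells of the organ. The ages of the mice were not given in the sources used here, and a line and a spleen are each 1 sample. In both lymphoma comparisons the same 9 lines were tested. The question was whether another member of the network was higher where Myc transcript was lower in the lines.

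MYC, MYCN and MYCL are transcription factors that bind DNA only as a pair with MAX, at E-box sequences, and activate genes of growth, ribosome production and the cell cycle. The MXD proteins (MXD1, MXD3, MXD4 and MXI1) and MNT compete for MAX and the same sequences and bring SIN3 corepressor complexes, which silence those genes. MLX is a relative of MAX that pairs with the glucose-responsive Mondo proteins and with some of the repressors. In B cells MYC is known for driving germinal centre entry and, when deregulated, lymphoma.

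The E-box CACGTG, which reads the same on both strands, was searched in promoter windows of 250 bases before to 50 bases after an annotated transcript start (RefSeq, GRCm38.p6), because it links the network's proteins to their own genes. It occurred in 2349 of 32851 windows (7.15%). It was in 4 of 11 windows of the members. Of the 9 members with a window, 4 held it: Max, Mlx, Mnt and Mxd4. The windows of Mycn, Mycl, Mxd1, Mxd3 and Mxi1 (3 windows) did not hold these letters. The table had no window for Myc. A second sequence, CACGCG, was searched on both strands as well. It was in 3045 of 32851 windows (9.27%) and in 1 of 11 windows of the members. The 4 matches of CACGTG are printed with 12 bases on either side, on the strand of the gene, with the motif in capitals.
Max, chr12:76962234-76962263, minus strand, motif across the start, its first base 3 bases before it: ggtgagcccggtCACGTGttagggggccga
Mlx, chr11:101087238-101087267, plus strand, first motif base 40 bases before the start: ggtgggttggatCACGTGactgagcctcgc
Mnt, chr11:74830789-74830818, plus strand, first motif base 123 bases before the start: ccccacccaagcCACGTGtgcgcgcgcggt
Mxd4, chr5:34187912-34187941, minus strand, first motif base 219 bases before the start: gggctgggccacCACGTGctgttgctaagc
A match describes the letters only. For Max, Mlx and Mnt the annotated gene begins 75, 583 and 118 bases before the start used for the window, so other transcripts of these genes start elsewhere. The same holds for genes without a match. For Mxd1, Mxd3 and Mycl the gene begins 75, 169 and 343 bases before the start used. For the 3 windows of Mxi1 it begins 378 to 19567 bases before. A lack of a match therefore holds for these windows only.

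Levels are log2 signal relative to the array's 75th percentile, and they compare samples for 1 probe, not 1 probe with another. The 75th percentile of signal ranged between 491 and 788 over the lines, between 668 and 896 over knockout spleens and between 570 and 832 over wild-type spleens. Atm, the deleted gene, was lower with both probes in every line and every knockout spleen than in any wild-type spleen. On probe A_52_P400509 its levels lay between -4.38 and -2.77 over the lines, between -2.69 and -2.07 over knockout spleens and between -0.67 and 0.00263 over wild-type spleens. The probe of Cd3e, which every mouse lacked, was well above background in all samples and so did not check that deletion. All 10 B cell markers were well above background in 9 of 9 lines. Of 8 T cell markers, 6 were lower in the lines than in knockout spleens and 1 was higher, Cd3d, by 2.11. Their summed linear level lay between 1.45 and 16.4 over the lines, between 12.7 and 18.9 over knockout spleens and between 15.0 and 18.8 over wild-type spleens, so the groups overlapped. Thy1, Cd8a and Trat1 were at background in all lines. All 7 NK cell markers and all 8 macrophage and monocyte markers were called lower in the lines in both comparisons (limma, adjusted p under 0.05). Of all genes 28.9% were called lower against knockout and 30.8% against wild-type spleens. The NK cell sum lay between 0.112 and 2.55 over the lines, between 46.0 and 75.1 over knockout spleens and between 67.3 and 95.4 over wild-type spleens. The macrophage sum lay between 0.257 and 17.3 over the lines, between 46.8 and 88.0 over knockout spleens and between 49.5 and 90.3 over wild-type spleens. The part of these cells in the lower Myc and Mycn of the lines was not tested. Lymphoma line 8 was measured on 2 arrays, which correlated at 0.968 (0.944 to 0.985 for arrays of different lines) and were averaged. The arrays lay on 6 slides, and 1 slide held lines only.

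All 3 MYC-family genes were lower in the lines than in either group of spleens. Myc (chr15:61985341-61990361) had a lowest, median and highest level of 2.14, 2.59 and 3.53 in the lines. It had 5.09, 5.27 and 5.78 in knockout spleens and 4.31, 4.70 and 5.01 in wild-type spleens. Every line was below every spleen. The fitted difference was -2.70 ± 0.18 (log2, SE), or 6.49-fold lower, against knockout spleens (limma, adjusted p = 1.83e-11) and -2.05 ± 0.17, or 4.14-fold lower, against wild-type spleens (adjusted p = 6.88e-10). This probe, A_51_P102096, was spotted 10 times on each array. The other Myc probes, A_52_P108346 and A_52_P278549, gave differences of -2.63 ± 0.19 and -2.73 ± 0.24 against knockout spleens, so the size hardly depended on the probe. Within the 5 slides that held both groups, the difference of Myc against knockout spleens was -3.15 to -1.81 and against wild-type spleens -2.31 to -1.39.

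Mycn (chr12:12936093-12941836), the MYC gene of precursor cells and neuroblastoma, was not well above background in any line (0 of 9) and was in 6 of 6 knockout and 7 of 7 wild-type spleens. Its measured levels were -8.80, -8.33 and -7.16 in the lines, -4.35, -4.23 and -3.20 in knockout spleens and -5.01, -4.17 and -3.63 in wild-type spleens (lowest, median, highest). Because the lines lie at background, the size is a bound: Mycn was at least 4.34-fold lower than in knockout spleens and at least 4.00-fold lower than in wild-type spleens. This bound sets the mean of the spleens against the lowest signal that was well above background on the arrays of the lines, or the probe's own signal where that was higher. The fit called the difference in both comparisons, but Mycn passed the filter only through the spleens. These calls set the spleens against background signal in the lines and add nothing to the bound. A second Mycn probe, A_51_P497332, was above background in 0 of 9 lines, 2 of 6 knockout spleens and 2 of 7 wild-type spleens and was not tested.

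Mycl (chr4:122995588-123002490), a MYC gene known from small cell lung cancer and, in mouse, from dendritic cells, had levels of -5.07, -4.11 and -1.75 in the lines (lowest, median, highest). It had -2.12, -1.94 and -1.63 in knockout spleens and -2.30, -1.96 and -1.77 in wild-type spleens. In 8 of 9 lines it was below every spleen, and line 8 lay within the range of the spleens. The differences were -2.15 ± 0.33 against knockout spleens (limma, adjusted p = 6.51e-06) and -2.06 ± 0.32 against wild-type spleens (adjusted p = 5.78e-06). The 2 arrays of line 8 gave -0.40 (the repeat) and -3.10 for Mycl, a gap of 2.70 that 431 genes (3.13%) matched or passed between these arrays, so the level of this line is not settled. Without line 8 the differences were -2.44 and -2.34. Dendritic cell markers were called lower in the lines for 5 of 5 genes in both comparisons, where 28.9% and 30.8% of all genes were. Their summed linear level lay between 0.584 and 8.12 over the lines, between 6.61 and 10.9 over knockout spleens and between 8.01 and 12.4 over wild-type spleens. Their part in the result for Mycl was not tested. In these bulk samples fewer cells of a type and less RNA per cell cannot be told apart.

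**Figure D1:**
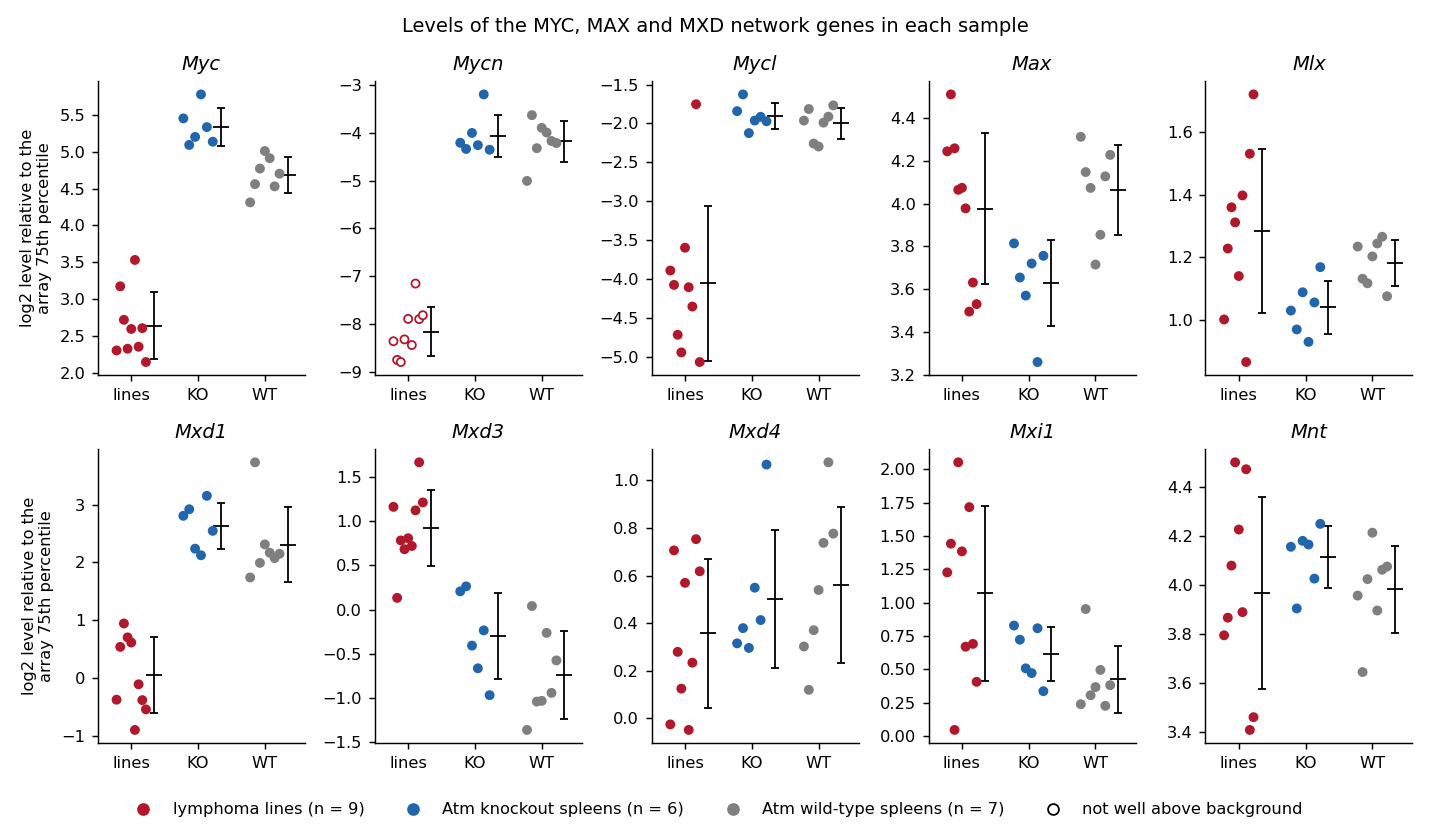
Log2 level relative to the array's 75th percentile of each network gene in the 9 lymphoma lines (red), 6 Atm knockout spleens (blue) and 7 Atm wild-type spleens (grey). Points are samples, bars are mean and SD, and open points are samples not well above background. The lines lie below all spleens for Myc, Mycn and Mxd1, and all but line 8 do for Mycl, while most lie above for Mxd3.

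The calls for the partner genes depended on the settings. Max (chr12:76937269-76962323), the obligate partner of all 3 MYC proteins, had 3.50, 4.07 and 4.51 in the lines, 3.26, 3.69 and 3.81 in knockout spleens and 3.72, 4.13 and 4.31 in wild-type spleens (lowest, median, highest). The groups overlapped. Against knockout spleens the difference was 0.35 ± 0.15 (limma, adjusted p = 0.0413), and against wild-type spleens it was -0.09 ± 0.14 (95% interval -0.38 to 0.21, adjusted p = 0.587). The call against knockout spleens held in 7 of 13 settings. The difference was 0.58 with slide in the model (adjusted p = 4.6e-05) and 0.31 to 0.90 within the 5 slides, but -0.050 with quantile normalisation, without a call. Against wild-type spleens Max was called lower with quantile normalisation (-0.51) and normexp (-0.49, adjusted p = 0.0012 for both) and higher with median centring (0.48). Mlx (chr11:101086707-101092207) had 0.87, 1.31 and 1.72 in the lines, 0.93, 1.04 and 1.17 in knockout spleens and 1.08, 1.20 and 1.27 in wild-type spleens. Its lines span both groups of spleens. The difference was 0.24 ± 0.10 against knockout spleens (adjusted p = 0.0408), but 0.21 without line 8 (adjusted p = 0.0734) and 0.19 ± 0.12 with slide in the model (adjusted p = 0.176), and it was 0.10 ± 0.10 against wild-type spleens (95% interval -0.10 to 0.31, adjusted p = 0.365).

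Among the repressors, Mxd1 fell in the lines and Mxd3 rose. Mxd1 (chr6:86647044-86669234), which is known to rise as myeloid cells stop dividing and mature, had -0.90, -0.11 and 0.94 in the lines, 2.12, 2.67 and 3.15 in knockout spleens and 1.74, 2.15 and 3.73 in wild-type spleens (lowest, median, highest). Every line was below every spleen. The difference was -2.58 ± 0.30, or 5.97-fold lower, against knockout spleens (limma, adjusted p = 1.37e-07) and -2.26 ± 0.29, or 4.78-fold lower, against wild-type spleens (adjusted p = 4.23e-07). Its second probe gave -2.43 ± 0.22 and -2.03 ± 0.21. Within the 5 slides that held both groups, each with 1 or 2 arrays of a group, the difference was -4.05 to -1.18 and -3.21 to -1.13. Neutrophil markers moved with it: all 8 of 8 were called lower in the lines in both comparisons, where 28.9% and 30.8% of all genes were. Their summed linear level lay between 0.0228 and 1.43 over the lines, between 233 and 715 over knockout spleens and between 203 and 907 over wild-type spleens. Mmp9 and Retnlg, 2 of these markers, were not above background in any line (0 of 9). The part of the neutrophils in the lower Mxd1 was not tested between lines and spleens.

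Mxd3 (chr13:55325170-55329900), the MXD gene known for expression in dividing cells during S phase, had 0.13, 0.81 and 1.66 in the lines, -0.97, -0.32 and 0.26 in knockout spleens and -1.36, -0.94 and 0.04 in wild-type spleens (lowest, median, highest). Only the lowest line, line 2, fell within the range of the knockout spleens, and every line was above every wild-type spleen. The difference was 1.22 ± 0.24, or 2.33-fold higher, against knockout spleens (limma, adjusted p = 1.03e-04) and 1.66 ± 0.23, or 3.16-fold higher, against wild-type spleens (adjusted p = 1.09e-06). The second probe gave 1.36 ± 0.23 and 1.78 ± 0.22. Proliferation markers moved with Mxd3: 11 of 12 were called higher in the lines in both comparisons, where 41.6% and 40.4% of all genes were. Their summed linear level lay between 173 and 461 over the lines, between 72.6 and 142 over knockout spleens and between 51.3 and 111 over wild-type spleens. Their part in the higher Mxd3 was not tested between lines and spleens. Within the 5 slides the difference of Mxd3 was 0.20 to 1.71 against knockout spleens and 0.09 to 1.97 against wild-type spleens.

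Mxi1 (chr19:53310128-53373293), a MAX partner also known as MXD2, had 0.05, 1.23 and 2.05 in the lines, 0.34, 0.61 and 0.83 in knockout spleens and 0.23, 0.37 and 0.95 in wild-type spleens. Its lines ran from below to above every spleen, a range of 2.01 on the log2 scale. The difference was 0.46 ± 0.24 against knockout spleens (95% interval -0.03 to 0.95, limma, adjusted p = 0.0878) and 0.65 ± 0.22 against wild-type spleens (adjusted p = 0.0139). With the 3 female wild-type spleens alone the second value was 0.70 (adjusted p = 0.0653).

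Mxd4 and Mnt were not called as reported, and under other settings they were called in either direction. Mxd4 (chr5:34176580-34187710), an MXD gene of resting and differentiating cells, had -0.05, 0.28 and 0.75 in the lines, 0.30, 0.40 and 1.07 in knockout spleens and 0.12, 0.54 and 1.08 in wild-type spleens. Its differences were -0.15 ± 0.16 (95% interval -0.49 to 0.19) and -0.20 ± 0.16 (-0.53 to 0.12). Mnt (chr11:74830806-74845725), the broadly expressed MAX-binding repressor, had 3.41, 3.89 and 4.50 in the lines, 3.90, 4.16 and 4.25 in knockout spleens and 3.65, 4.02 and 4.21 in wild-type spleens. Its differences were -0.15 ± 0.15 (95% interval -0.46 to 0.16) and -0.02 ± 0.14 (-0.31 to 0.28). For both genes the groups overlapped and the intervals hold 0. With quantile normalisation Mnt was called lower against knockout spleens (-0.56, limma, adjusted p = 0.0020) and wild-type spleens (-0.42, adjusted p = 0.0113), and with median centring it was called higher (0.44 and 0.56). Mxd4 was called lower against the 3 female wild-type spleens alone (-0.51, adjusted p = 0.0336) and higher with median centring (0.44 and 0.37).

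**Figure D2:**
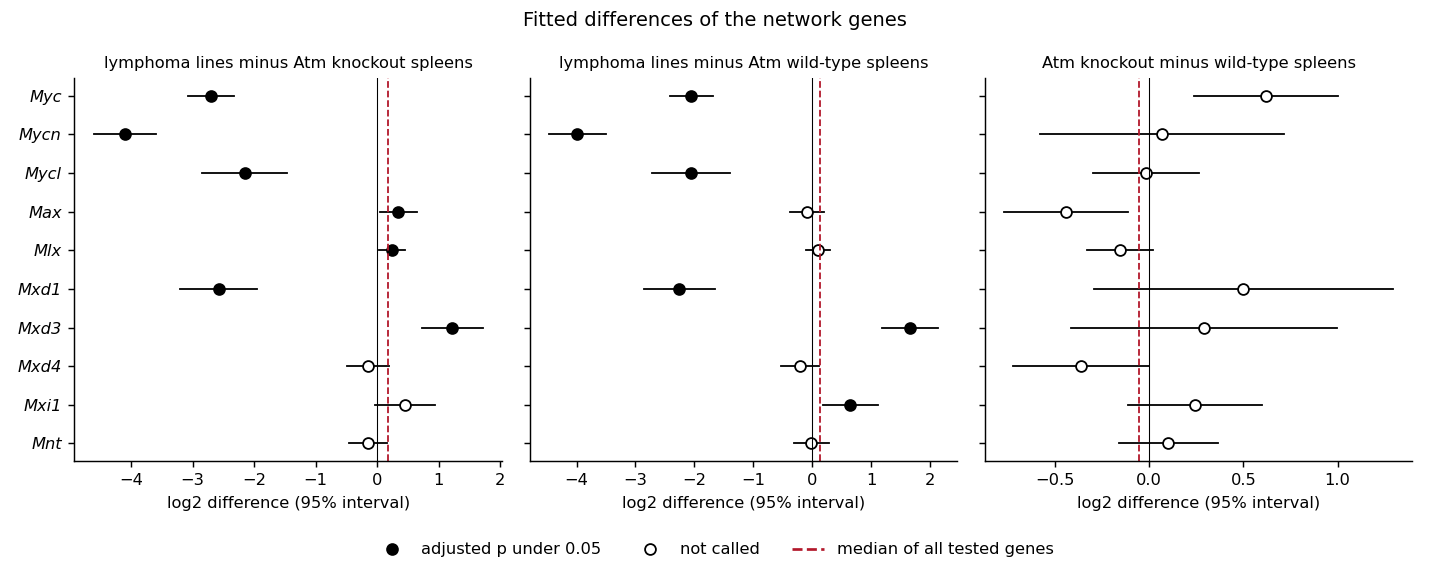
Fitted log2 difference of each network gene with its 95% interval for lymphoma lines minus Atm knockout spleens, lymphoma lines minus Atm wild-type spleens and Atm knockout minus wild-type spleens. Filled points have an adjusted p under 0.05, and the dashed line is the median of all tested genes. The first 2 panels share the lines, the values of Mycn rest on lines at background and do not measure its size, and their largest differences are those of Mycn, Myc, Mxd1 and Mycl (lower) and Mxd3 (higher).

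Of the 10 members, 7 were called between lines and knockout spleens (3 higher, 4 lower), where 70.4% of all tested genes were called (41.6% higher, 28.9% lower). Against wild-type spleens 6 were called (2 higher, 4 lower), where 71.3% of all genes were (40.4% higher, 30.8% lower). A share of called members near that of all genes is not a result about the network. Lines and spleens did not overlap for 3 members against knockout spleens and 4 against wild-type spleens, where 40.9% and 41.8% of all genes did not overlap. Mycn is in each of these counts, although it passed the filter only through the spleens. The median difference of the members was -0.15 in both comparisons, beside 0.18 and 0.14 for all tested genes, and it does not depend on the bound for Mycn.

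Between genotypes none of the 10 members was called (0 higher, 0 lower), where 3.82% of all genes were called (1.66% higher, 2.16% lower). At an unadjusted p under 0.05, Myc, Max and Mxd4 were past the threshold (limma, p = 0.00406, 0.0123 and 0.0495). Myc came nearest: it was higher in every knockout spleen than in any wild-type spleen, a separation that 4.35% of all genes showed, and the difference was 0.62 ± 0.18 with an adjusted p of 0.0752. All knockout spleens were female, so the model with a sex term sets them against the 3 female wild-type spleens, which had 4.91, 4.53 and 4.70. Without the sex term the difference was 0.65 and was called (adjusted p = 0.00914). The 2 other Myc probes gave 0.57 ± 0.20 and 0.87 ± 0.32 (adjusted p = 0.149 and 0.161), and on both of them the genotypes overlapped. Max was lower in knockout spleens by the fit, with -0.44 ± 0.15 (adjusted p = 0.128), and without the sex term with -0.44 (adjusted p = 0.0291). Markers of other cells differed between genotypes beside these values. NK cell markers were called lower in knockout spleens for 4 of 7, with a median difference of -0.76. Neutrophil, erythroid and proliferation markers had medians of 0.86, 0.86 and 0.71, with 0 of 8, 0 of 6 and 1 of 12 called. Their part in the differences of Myc, Max, Mxd1 and Mxd3 was not tested. For Mxd1, Mxd3, Mycn and Mycl the genotype difference was 0.50, 0.29, 0.07 and -0.02, each with an interval that holds 0.

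Among the 9 lines no relation between Myc and another member passed the test. Myc itself ranged over 1.39 on the log2 scale, with line 6 highest and line 9 lowest. Pearson's r of Myc with 8 other members lay between -0.54 (Mxd3) and 0.44 (Max), and Mycn was left out because it was not above background. By a two-sided exact permutation test none of the 8 relations had an unadjusted p under 0.05, for r or for Spearman's rho, and the smallest adjusted p was 0.859. For Mxd3, the most negative, r was -0.54 and rho -0.52 (exact permutation p = 0.146 and 0.162, adjusted p = 0.859 and 0.948), and without the 2 lines farthest from the median of Myc r was -0.09. With 9 lines a weaker relation was not detectable. Mycl had an SD of 0.99 among the lines, above 93.4% of 10482 genes measured in all lines, but this rested on line 8: without it the SD was 0.52, above 74.9% of these genes. Mxd1 and Mxi1 had SDs of 0.65 and 0.66 with all lines and 0.68 each without line 8. Mlx had the smallest SD of the members, 0.26 with and without line 8.

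**Figure D3:**
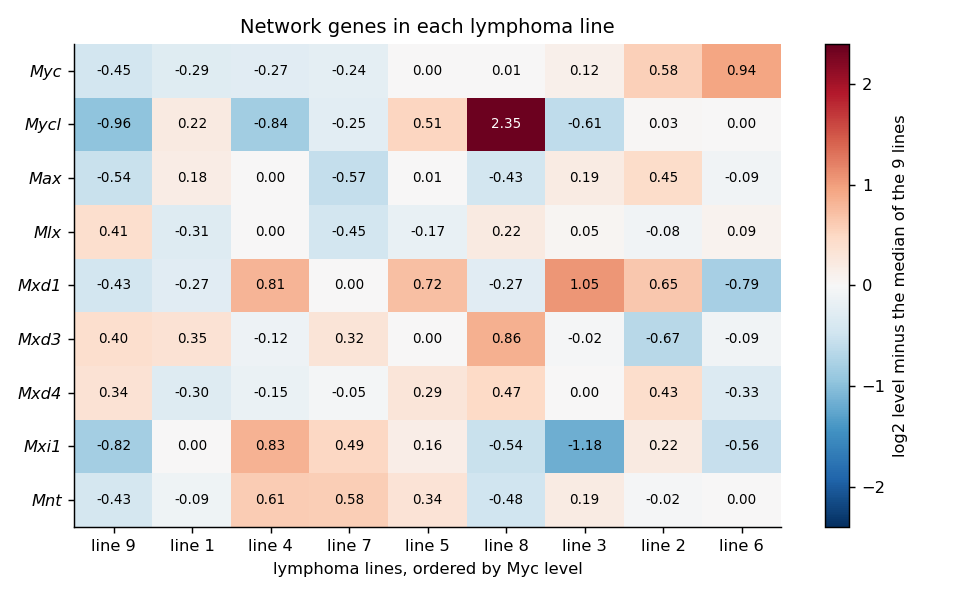
Log2 level of 9 network genes in each lymphoma line, as a difference from the median of the 9 lines, with lines ordered from low to high Myc. Mycn is left out because no line was above background. No row runs steadily against the row of Myc, and the largest value, 2.35 for Mycl, is that of line 8.

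The levels of Myc and 3 repressors were set against the mean log2 level of marker lists over the 13 spleens or the 9 lines, as 8 relations chosen after the members' levels had been seen. Where 2 samples were left out, they were those farthest from the median level of the list in that relation. Mxd1 followed the neutrophil markers (r = 0.94, rho = 0.95, permutation p = 1e-05 for both, the smallest that 100000 resamples can give, adjusted p = 8e-05), with r = 0.89 within knockout and 0.98 within wild-type spleens, and 0.89 without the 2 spleens farthest from the median. Mxd3 followed the proliferation markers in the spleens (r = 0.91, rho = 0.90, permutation p = 8e-05 and 0.00013, adjusted p = 0.00032 and 0.00052), with 0.86 within knockout and 0.96 within wild-type spleens. It did so again over the 9 lines (r = 0.80, rho = 0.75, exact permutation p = 0.014 and 0.0255, adjusted p = 0.0279 and 0.0443), with r = 0.65 without the 2 farthest lines. Mxi1 followed the erythroid markers in the spleens (r = 0.74, rho = 0.81, permutation p = 0.00612 and 0.00114, adjusted p = 0.0163 and 0.00304). In the spleens each of these repressors was set against a single list, and how closely it followed the other lists was not tested. The values therefore do not tie a repressor to its list alone. For Myc and the proliferation markers r was 0.48 and rho 0.62 over the spleens (permutation p = 0.0968 and 0.0277, adjusted p = 0.155 and 0.0443), and r was -0.38 within knockout and 0.04 within wild-type spleens, so the relation by rank, which passed the test, did not hold within genotypes. Over the lines r of Myc was -0.46 with the proliferation markers and -0.03 with genes induced by MYC (exact permutation p = 0.218 and 0.93, adjusted p = 0.29 and 0.93). Without the 2 lines farthest from the median level of each list, not of Myc, these were 0.07 and 0.51. Mxd1 and the neutrophil markers gave r = 0.39 over the lines (exact permutation p = 0.324, adjusted p = 0.371), where these markers are mostly at background.

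**Figure D4:**
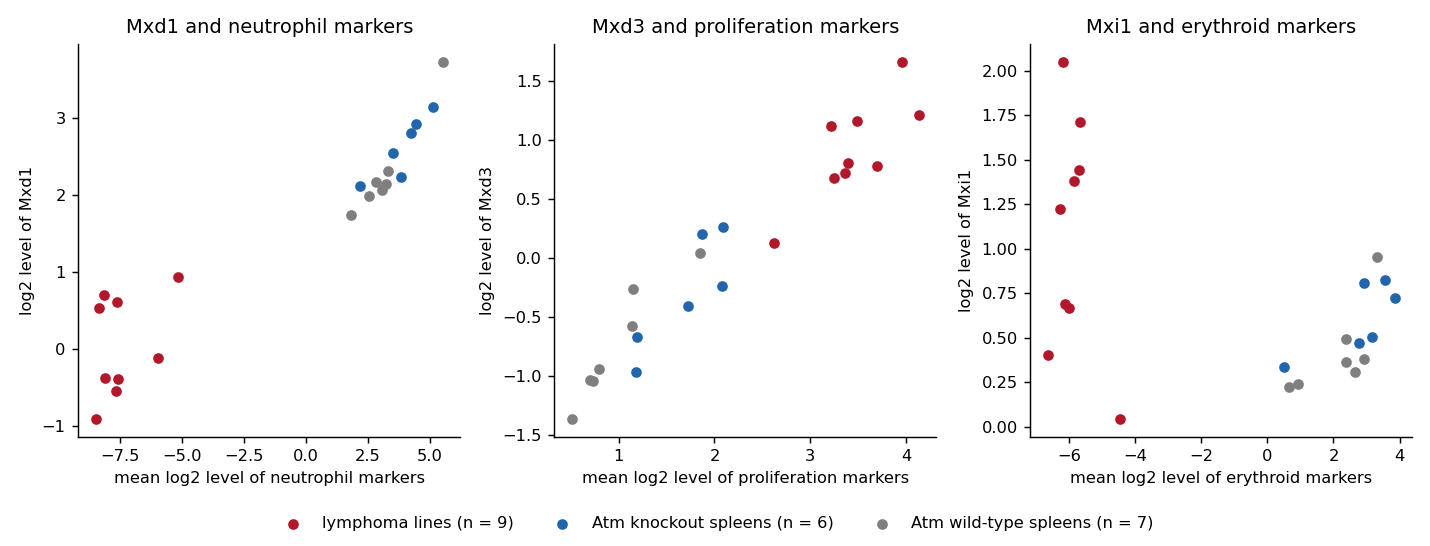
Log2 level of Mxd1, Mxd3 and Mxi1 (vertical axes) against the mean log2 level of neutrophil, proliferation and erythroid markers (horizontal axes) in the 9 lymphoma lines (red), 6 Atm knockout spleens (blue) and 7 Atm wild-type spleens (grey). Mxd1 climbs with the neutrophil markers among the spleens (r = 0.94), Mxd3 with the proliferation markers among spleens (r = 0.91) and lines (r = 0.80), and Mxi1 with the erythroid markers among the spleens (r = 0.74). Other pairings of these genes and lists were not tested.

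Genes that MYC is known to induce were mostly higher in the lines. Of 38 tested, 31 rose and 0 fell against knockout spleens and 33 rose and 0 fell against wild-type spleens (limma, adjusted p under 0.05), with a median of 0.94 and 1.14, beside 0.18 and 0.14 for all genes. Of all genes 41.6% were called higher and 28.9% lower against knockout spleens, and 40.4% and 30.8% against wild-type spleens. Slc7a5, an amino acid transporter, was higher by 2.31 ± 0.16 and 2.90 ± 0.16 in the 2 comparisons. Ccnd2, a cyclin of G1 phase, was higher by 2.31 ± 0.14 and 2.50 ± 0.14. Shmt1, an enzyme of serine and folate metabolism, was higher by 2.24 ± 0.18 and 2.56 ± 0.17. The mean log2 level of the list lay between 3.26 and 3.94 over the lines, between 2.51 and 2.62 over knockout spleens and between 2.23 and 2.52 over wild-type spleens, and no line overlapped a spleen. The proliferation markers moved with this list, with medians of 1.88 and 2.71, and their part in it was not tested. The strongest of them were Ccnb1, Foxm1 and Top2a, genes of mitosis, at 2.77 ± 0.30, 2.74 ± 0.25 and 2.34 ± 0.28 against knockout spleens. Between genotypes 1 of the 38 was called, Odc1, the rate-limiting enzyme of polyamine synthesis, which was higher in knockout spleens by 0.75. The E-box CACGTG was in 10 of 40 windows of these genes (25%), beside 7.15% of all windows. Counted by gene, 9 of 30 that had a window held it (30%). CACGTG was in 0 of 9 windows of the proliferation markers and in 1 of 18 windows of corepressor genes. The second sequence, CACGCG, was in 13 of 40 windows of the genes induced by MYC, beside 9.27% of all windows.

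Genes known to be repressed by MYC went both ways. Of 13 tested, 4 rose and 6 fell against knockout spleens, with a median of -0.94, where 41.6% of all genes rose and 28.9% fell. Against wild-type spleens 4 rose and 6 fell, with a median of -0.92, where 40.4% of all genes rose and 30.8% fell. The cyclin-dependent kinase inhibitors Cdkn2b and Cdkn1a rose by 3.28 ± 0.26 and 2.48 ± 0.23, and the integrin gene Itgb1 by 2.25 ± 0.16. The extracellular protein genes Thbs1 and Clu, not above background in any line, were at least 47.7-fold and at least 33.5-fold lower, and Cebpa, a myeloid transcription factor above background in 5 of 9 lines, was lower by 4.56 ± 0.48 on the log2 scale. Markers of megakaryocytes and platelets (4 of 5), of stroma and endothelium (5 of 6) and of macrophages and monocytes (8 of 8) were lower in the lines too, and their part in these last 3 genes was not tested.

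Among the network's other proteins and its cofactors, the shares called higher were near or below the 41.6% of all genes against knockout spleens, where 28.9% of all genes fell. All 3 further members of the network fell against both groups of spleens: Mlxip and Mlxipl, the Mondo partners of MLX, and Mga, a MAX partner that acts as a repressor. Their differences against knockout spleens were -0.83 ± 0.16, -1.13 ± 0.36 and -0.94 ± 0.13, and Mlxipl was above background in 7 of 9 lines. Mlxipl was also lower in knockout than in wild-type spleens, by -1.32 (limma, adjusted p = 0.00882). Of 15 genes of SIN3 and related corepressor complexes, through which MXD and MNT proteins silence targets, 7 rose and 3 fell against knockout spleens, with a median of 0.41. The histone-binding subunits Rbbp7 and Rbbp4 and the SIN3 subunit Sap18 were higher by 1.50 ± 0.11, 0.93 ± 0.10 and 0.84 ± 0.11. Arid4a and Arid4b, which encode SIN3-associated proteins, were lower, with -0.93 ± 0.10 and -0.78 ± 0.13. Of 15 genes of MYC cofactors 7 rose and 2 fell, led by the helicase genes Ruvbl1 and Ruvbl2 and by Actl6a at 0.99 ± 0.14, 0.93 ± 0.13 and 0.59 ± 0.12. The acetyltransferase genes Kat2a and Ep300 were lower, with -0.74 ± 0.16 and -0.73 ± 0.14. Against wild-type spleens, where 40.4% of all genes rose and 30.8% fell, the cofactors split 4 higher and 5 lower. The 15 corepressor genes split 9 higher and 4 lower in that comparison.

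Genes that control the life of the MYC protein were called higher about as often as all genes. Of 14 tested, 7 rose and 2 fell against knockout spleens, where 41.6% of all genes rose and 28.9% fell, and 7 rose and 2 fell against wild-type spleens, where 40.4% rose and 30.8% fell. Cip2a, which shields MYC from the phosphatase PP2A, was higher by 2.06 ± 0.30 and 2.82 ± 0.29 in the 2 comparisons. Aurka, the mitotic kinase that stabilises MYCN protein, was higher by 1.84 ± 0.24 and 2.46 ± 0.23, and Trim32, a ubiquitin ligase, by 1.91 ± 0.12 and 1.74 ± 0.12. The ligase genes Fbxo32 and Btrc were lower, with -0.58 ± 0.21 and -0.57 ± 0.17 against knockout spleens. Fbxw7, the best known ubiquitin ligase of MYC, named here after its values were seen, had -0.10 ± 0.16 (adjusted p = 0.608). The arrays measured transcript only, so the amount of MYC protein is not known from them. Of 18 regulators of Myc transcription 6 rose and 8 fell against knockout spleens, with a median of 0.06. Bcl6, a repressor of Myc in germinal centre B cells, was higher by 1.77 ± 0.31, and E2f1, an activator, by 1.75 ± 0.19. Ikzf3, the lymphoid repressor Aiolos, was higher by 1.15 ± 0.18. Tcf7l2 and Notch2, whose pathways activate Myc, were lower, with -3.66 ± 0.55 (above background in 8 of 9 lines) and -2.31 ± 0.13, as was Foxo3, with -1.34 ± 0.31 (above background in 3 of 9 lines).

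The direction of the smaller differences depended on how the arrays were scaled, and that of the larger ones did not. Centring each array on its median moved the median of all genes between lines and knockout spleens to 0.77, against 0.18 as reported, and turned the split of called genes to 8452 higher and 2604 lower, beside 5722 and 3972 as reported. Against wild-type spleens it moved the median to 0.71 and the split to 8289 higher and 2740 lower, beside 5562 and 4246. Under median centring, quantile normalisation, normexp and the authors' value table, the difference of Myc from knockout spleens, counted from the median of all genes, was -3.22 to -2.88, that of Mxd1 -2.89 to -2.61 and that of Mxd3 0.86 to 1.04. That of Mycl was -2.33 to -0.93, where the small end comes from normexp, whose offset of 50 shrinks dim probes. Mycn was lower in all of them, and its size is not given because the lines lie at background. Relative to the median of all genes, Max was -0.20 to 0.17 and Mlx -0.09 to 0.06, so their direction against knockout spleens depends on the scaling.

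**Figure D5:**
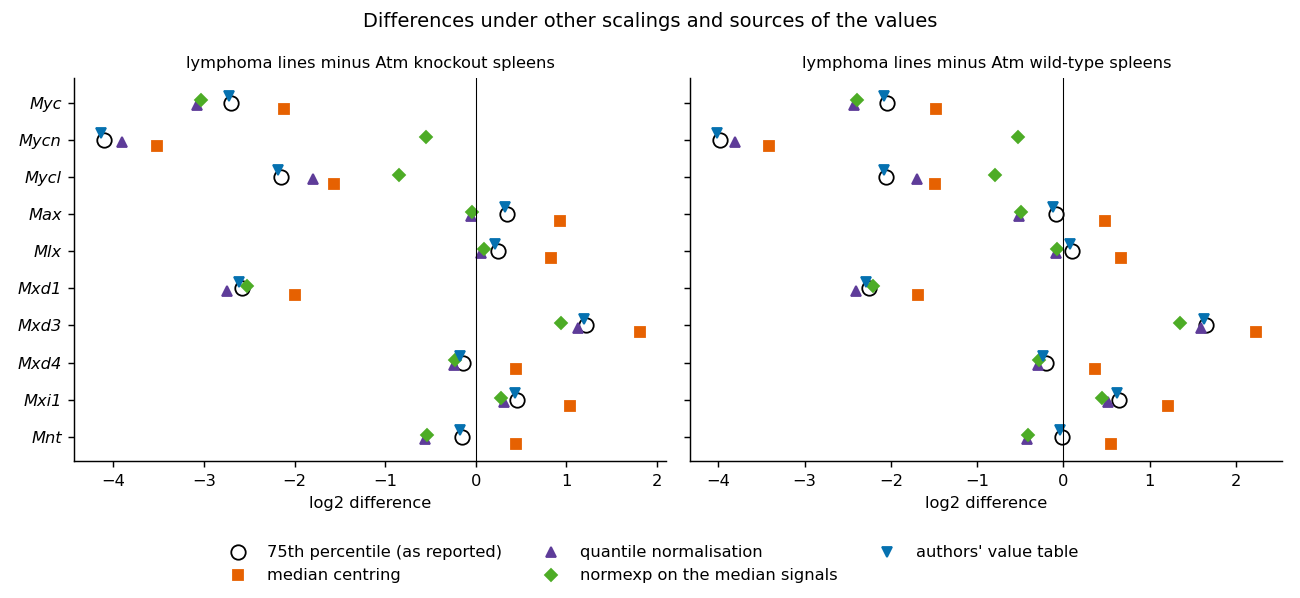
Log2 difference of each network gene for lymphoma lines minus Atm knockout spleens (left) and minus Atm wild-type spleens (right), with the reported scaling as open circles and 4 other treatments of the arrays as filled symbols. Myc, Mycn, Mycl and Mxd1 stay below 0 and Mxd3 stays above 0 in all of them, while Max, Mlx, Mxd4 and Mnt lie on either side of 0 or near it. The values of Mycn rest on lines at background.

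Of 10237 named genes measured in all lines, those whose level ran closest to Myc over the 9 lines were Ift22, Zfp644, Zfp445, Trip11 and Zbtb43, with r of 0.92, 0.92, 0.91, 0.91 and 0.91. They were picked as the highest, so the values describe these 9 lines and carry no test. Without the 2 lines farthest from the median of Myc, r was 0.65 to 0.85, and over the 13 spleens it was -0.49 to 0.15. Of the 5, only Ift22 was called between lines and knockout spleens, at 0.95 ± 0.16, and the direction was opposite to that of Myc.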

How the data were processed

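RNA of 9 lymphoma lines (10 arrays), 6 Atm knockout and 7 wild-type spleens was measured. The deposited intensity values are processed signals written by Feature Extraction 10.7.1.1, per the file headers. The authors' deposited value table holds log2 values. Each probe of this table had a median of 0, and the array medians were -0.207 to 0.522. With each probe centred on its mean in both sources, its arrays matched the scanner files (correlation 1). The value table served as an alternative. Control spots (1639 per array) and 1556 flagged spots were left out. No member probe lost all of its spots on any array (0). The Myc probe A_51_P102096 kept 9 of its 10 spots in lymphoma lines 2 and 4 and in wild-type spleen 2. No spot was saturated (0). Signals were divided by the 75th percentile of their array, then log2 was taken. Symbols came from RefSeq accessions (GRCm38.p6): 26690 of 41174 probes matched. A probe was tested if well above background in at least 6 of 22 samples, and the one with the highest mean represented its gene. The fits used limma 3.58.1 (R 4.3.3) with Benjamini-Hochberg adjustment over 13765 genes and a threshold of 0.05: the 3 groups in 1 fit, and the 13 spleens with genotype and sex. Correlations used permutation tests in Python 3.11.15. The fits were tested on simulated data. The number of arrays limits the precision. The labels do not say whether the lines or spleens of a group came from unrelated animals. The p-values of the fits set each difference against the spread between these samples.

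The members and the gene lists were chosen with earlier results of these data known. All members are described with their probes, and from each list up to 3 called genes per direction with the largest difference from knockout spleens are named, as are the 5 genes most like Myc over the lines. A gene that this rule would name is not reported here. The design text counts 10 lines, but 2 arrays carry the title of line 8, 1 of them as a repeat. Alternatives were another scaling, normexp on the median signals (in place of the mean signals, which were not used here), the value table, other filters, the mean of probes, slide, sex, array weights and the treatment of line 8. The version without line 8, the one without wild-type spleen 2 and normexp on median signals were chosen after seeing the data.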

Additional observations from a re-analysis of the deposited data

Results flagged for a closer look

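In 5 of 30 groups of values (10 members in 3 groups) 1 sample stood apart from the rest by Dixon's test at the 95% level, which chance flags in about 1 in 20 groups. Mycl was -1.75 in lymphoma line 8, where the next line was at -3.60, and its 2 arrays differed. Wild-type spleen 2, a male, stood apart for 2 repressors: Mxd1 was 3.73, with the next spleen at 2.31, and Mxi1 was 0.95, with the next at 0.50. The same spleen had the highest mean level of neutrophil markers (5.55), and of erythroid markers (3.33) and proliferation markers (1.85) among wild-type spleens. Their part in its high Mxd1 and Mxi1 was not tested. Mycn was -3.20 in knockout spleen 5, with the next at -4.00. Mxd4 was 1.07 in knockout spleen 6, with the next at 0.55.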

How the results depend on the processing

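Over the alternatives run as fits, Myc, Mycl and Mxd1 stayed lower and Mxd3 higher in the lines. These 4 were called in each, in 13 settings against knockout and 15 against wild-type spleens. Mycn was lower in 12 and 14 settings, as the filter on all samples removes it. It passed the other filter only through the spleens, so its calls set spleens against background signal and add nothing. Myc ranged from -3.07 to -2.11 and from -2.43 to -1.48. Within slides Myc was -3.15, -1.98 and -1.81 on slides 2, 3 and 6 against knockout spleens and -1.39 on slide 3 against wild-type spleens. The smaller differences depended on scaling and slide. Against knockout spleens the direction turned for Max with quantile normalisation (-0.050) and normexp (-0.045), for Mxd4 and Mnt with median centring (0.44 each) and for Mlx within slide 2 (-0.028). Against wild-type spleens it turned with median centring for Max (0.48), Mxd4 (0.37) and Mnt (0.56), and within slide 4 for Mxi1 (-0.30). Among differences that were not called as reported, Mlx against wild-type spleens was -0.087 with quantile normalisation, -0.079 with normexp and -0.24 within slide 2, and Max was 0.15 with slide. Mxi1 against knockout spleens was -0.43 within slide 4 and -0.14 within slide 6, and Mxd4 (0.37, slide 3) and Mnt (0.11, slide 5) also turned within a slide. Quantile normalisation and normexp called Max lower against wild-type spleens (-0.51 and -0.49) and Mnt lower against knockout (-0.56 and -0.54) and wild-type spleens (-0.42 and -0.41). The cause was not tested. With median centring all 10 members were called against wild-type spleens (6 higher, 4 lower). Under this scaling most of the 13765 tested genes were called too, and their median difference was 0.71. The count is therefore not a result about the network, and Mycn is among the 4 lower. Between genotypes 2 members, Myc (0.65) and Max, were called without the sex term, and the count of all called genes was 328 with median centring, 254 with slide, 340 with females only and 1428 without the sex term, against 526 as reported. No correlation of Myc with a member passed under any of the 3 settings (0). Slides held too few arrays for a test within each. The dim signal of Mycn in the lines limits its size to a bound. No paired analysis was possible because the labels give the samples no shared replicate numbers.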

Other observations

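Genes known to respond to glucose through MLX and its Mondo partners went both ways in the lines. Of 10 tested, 4 rose and 3 fell against knockout spleens, with a median of -0.16, beside 0.18 for all genes, and 4 rose and 3 fell against wild-type spleens. Of all genes 41.6% rose and 28.9% fell against knockout spleens, and 40.4% and 30.8% against wild-type spleens. Acaca and Fasn, enzymes of fatty acid synthesis, were higher by 1.19 ± 0.13 and 1.005 ± 0.176 against knockout spleens, and Tkfc, an enzyme of fructose metabolism, by 0.75 ± 0.22. Arrdc4, an arrestin-domain gene that MLX partners are known to induce, was not above background in any line and was at least 16.7-fold lower, and Pklr, the liver and red cell pyruvate kinase, was lower by 2.38 ± 0.40 on the log2 scale, above background in 5 of 9 lines. Erythroid markers were lower for 6 of 6 genes, with a summed linear level between 0.0873 and 2.70 over the lines, between 121 and 663 over knockout spleens and between 172 and 557 over wild-type spleens, and their part in the lower Pklr was not tested. Arrdc3 was lower against knockout spleens by 0.80 ± 0.13 on the log2 scale, while its difference from wild-type spleens was -0.05 ± 0.12 (limma, adjusted p = 0.741), and it was higher in knockout than in wild-type spleens by 0.63 (adjusted p = 0.00709).

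For several other members the 2 arrays of line 8 also differed. Max was 4.01 on the repeat and 3.25 on the first array, a gap of 0.75, beside a median absolute difference of 0.33 over all genes, while Myc was 2.57 and 2.64 and Mycn -7.91 and -7.89. Without the repeat array the difference of Max between lines and knockout spleens was 0.31 (limma, adjusted p = 0.103).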
